A study of Mus musculus with 6 samples.

Results

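The 8 genes described here encode the MHC class I machinery and the leukocyte protein CD45: H2-K1, H2-D1, B2m, Tap1, Tap2, Tapbp, Nlrc5 and Ptprc. They were chosen by symbol, because hashtag antibodies for mouse cells commonly bind CD45 and MHC class I, and each matched 1 of the 32285 genes in the count matrices (8 of 32285). c-Kit+ cells, a fraction enriched for progenitors, were taken from the bone marrow of female BALB/c mice at 10 weeks of age and profiled by droplet 3′ single-cell RNA sequencing. Non-tumor-bearing (NTB) mice had no tumor and no treatment. The other mice bore 4T1 tumors, a mammary carcinoma line of BALB/c origin, and received daily intraperitoneal injections for 2 weeks from the first measurable tumor, either of DPBS (vehicle) or of brequinar at 10 mg/kg (BRQ), an inhibitor of the pyrimidine synthesis enzyme DHODH. Each of 3 pools held 1 mouse of each group, so there were 3 mice per group, told apart by hashtag antibody: B0301 for NTB, B0302 for vehicle and B0303 for BRQ.

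An MHC class I molecule is a heavy chain (H2-K1 or H2-D1 in these mice) bound to the light chain β2-microglobulin (B2m) and a short peptide. Tap1 and Tap2 form the pump that carries peptides into the endoplasmic reticulum, tapasin (Tapbp) holds the empty heavy chain next to that pump, and Nlrc5 is the transcriptional activator of the class I genes. Ptprc encodes CD45, a membrane tyrosine phosphatase carried by nucleated blood cells and lost as red cells mature, which acts on Src-family kinases.

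The 3 hashtags are shown because every assignment of a cell to a mouse rests on them. Each was a run of 15 bases, given here as deposited.
B0301: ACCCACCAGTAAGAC
B0302: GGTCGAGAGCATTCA
B0303: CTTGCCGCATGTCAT
B0301 and B0302 each differed from the nearest other hashtag at 11 of 15 positions and B0303 at 12.

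The 3 pools held 11441 to 14297 barcodes with 100700982 to 135564079 gene UMIs (unique molecular identifiers, counted RNA molecules), and 9593 to 11994 barcodes per pool passed the filters. HTODemux, which sets a background cutoff for each hashtag, called 39.2%, 52.1% and 31.5% of them negative in pools 1, 2 and 3, and 7.93%, 6.06% and 18.1% doublets. The singlets numbered 554, 1307 and 2447 for NTB, 2780, 382 and 1261 for vehicle and 2571, 2321 and 2343 for BRQ. NTB hashtag signal was the lowest against other hashtags: the median of B0301 in NTB singlets was 2.22 times the next hashtag in pool 1, but 0.75 and 0.51 times in pools 2 and 3, where B0302 was the more abundant tag in the same cells (772 against 582 UMIs and 898 against 457 UMIs). Comparisons with NTB were therefore also run without each NTB mouse and with calls from tag ratios, in which each hashtag was divided by its own pool median. B0302 was abundant in other barcodes of pools 2 and 3 too, at 716 and 862 UMIs in negatives and 819 and 980 in BRQ singlets. B0303 in BRQ singlets was 2.83, 1.22 and 1.26 times the next hashtag in pools 1, 2 and 3. Between 38 and 48 barcode sequences were shared by pairs of pools.

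Of the 8 genes, 5 lie on mouse chromosome 17 (GRCm38): Tapbp (chr17:33915899-33929292, plus strand), H2-K1 (chr17:33996017-34000347, minus), Tap1 (chr17:34187553-34197225, plus), Tap2 (chr17:34203527-34216321, plus) and H2-D1 (chr17:35262730-35267499, plus). B2m lies at chr2:122147686-122153083 (plus), Ptprc at chr1:138062861-138175708 (minus) and Nlrc5 at chr8:94434356-94527272 (plus). BALB/c mice carry the d haplotype of the class I region and the mm10 reference the b haplotype, and class I heavy chain genes resemble each other. The heavy chain values are therefore uncertain as to allele and paralog, and the share of reads lost or assigned to another heavy chain was not tested. The 3′ counts do not separate the splice forms of Ptprc.

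The start-site regions of H2-K1, H2-D1 and B2m are shown because H2-K1 and H2-D1 rose together in the group comparisons given further on. The stretches come from RefSeq (GRCm38.p6), lie upstream of a RefSeq start and are printed 5′ to 3′ on the gene's strand, with capitals marking the searched motifs. By the gene positions given above, the B2m stretch lies upstream of the gene. The H2-D1 stretch lies inside H2-D1 by those positions, and the H2-K1 stretch overlaps the first bases of H2-K1.
H2-K1 (chr17:34000335-34000468, minus strand): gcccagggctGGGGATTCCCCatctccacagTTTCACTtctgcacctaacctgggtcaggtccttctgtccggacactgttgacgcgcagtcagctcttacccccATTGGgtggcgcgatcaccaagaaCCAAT
H2-D1 (chr17:35262913-35263045, plus strand): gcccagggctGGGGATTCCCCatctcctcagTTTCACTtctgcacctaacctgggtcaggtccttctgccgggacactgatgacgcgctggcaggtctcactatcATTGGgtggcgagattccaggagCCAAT
B2m (chr2:122147538-122147638, plus strand): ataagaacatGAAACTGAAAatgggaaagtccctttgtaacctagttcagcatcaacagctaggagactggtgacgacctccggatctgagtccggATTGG
The motif GGGGATTCCCC, a binding site of the NF-κB type, was found in 10 of 32851 RefSeq start windows on either strand (0.0304%), which belonged to 9 genes, and 3 of these were class I genes (H2-K1, H2-D1 and H2-Q6). The interferon-response cores AGTGAAA (4.32% of windows, read here as TTTCACT on the other strand) and GAAANNGAAA (3.44%) were found in the H2-K1 and H2-D1 windows and in the B2m window, respectively. CCAAT, which also appears as ATTGG, was in 37.4% of windows and in those of 5 of the 8 genes. The H2-K1 and H2-D1 windows were identical at 176 of 240 aligned positions (73.3%). Windows were held for 6 of the 8 genes, and none was held for Tap2 or Nlrc5. A match is a description of letters and not of factor binding.

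Levels by cell class are given as UMIs per 1000000 gene UMIs (CPM) summed over the barcodes of a class in a pool, whatever their hashtag call, as mean ± SD over 3 pools. The classes are clusters named from marker genes and carry "-like" because only RNA was measured, and these levels are descriptions without a test, since the classes came from the same cells' RNA. In H2-K1 the B cell-like class stood at 777 ± 25.5 CPM, the macrophage-like class at 713 ± 11.9 and the stem and multipotent progenitor (HSC/MPP)-like class at 648 ± 38.1. GMP-like cells (granulocyte-monocyte progenitors) held 310 ± 28.0 CPM, neutrophil-like cells 185 ± 30.1 and erythroid/MEP-like cells 154 ± 19.9. B cell-like and macrophage-like cells, macrophage-like and HSC/MPP-like cells, monocyte/MDP-like (487 ± 61.0) and GMP-like cells, and GMP-like and neutrophil-like cells did not overlap between pools. The erythroid/MEP-like pools (132, 158 and 171 CPM) and the neutrophil-like pools (151, 198 and 207 CPM) overlapped.

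H2-D1 had another order. Its level was 988 ± 102 CPM in macrophage-like, 845 ± 45.8 in B cell-like and 663 ± 35.3 in HSC/MPP-like cells, and neutrophil-like cells followed at 587 ± 77.1, beside 586 ± 47.2 in monocyte/MDP-like and 445 ± 29.9 in GMP-like cells. Erythroid/MEP-like cells were again lowest of the classes, at 286 ± 21.6 CPM. B2m stood at 2993 ± 159 CPM in B cell-like cells, 1239 ± 166 in macrophage-like and 1024 ± 44.2 in HSC/MPP-like cells. It was at 572 ± 50.3 in GMP-like and 450 ± 16.8 in erythroid/MEP-like cells. H2-K1, H2-D1 and B2m thus shared the lowest class. Over pooled barcodes B cell-like cells were the highest class in H2-K1 and B2m, and in H2-D1 the macrophage-like (881 to 1085 CPM) and B cell-like pools (802 to 893 CPM) overlapped.

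Lymphoid progenitor-like cells were high in both peptide pump genes. Tap1 stood at 121 ± 15.8 CPM there, 77.8 ± 6.01 in HSC/MPP-like cells and 32.1 ± 3.69 in GMP-like cells. Tap2 stood at 131 ± 36.2 in lymphoid progenitor-like cells, level with the 1 stromal/endothelial-like pool measured (130.4), and at 32.9 in GMP-like and 32.5 in erythroid/MEP-like cells. Tapbp was at 212 ± 18.5 CPM in macrophage-like and 137 ± 26.8 in basophil/mast/eosinophil-like cells, against 63.2 in GMP-like and 58.4 in erythroid/MEP-like cells. Nlrc5 was sparse in every class, from 12.7 ± 5.44 CPM in lymphoid progenitor-like cells and 8.83 ± 0.425 in HSC/MPP-like cells to 1.06 ± 0.354 in neutrophil-like cells. Stromal/endothelial-like cells reached 20 barcodes in 1 pool only, and their Nlrc5 count there was 0.

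Ptprc followed none of these orders. Neutrophil-like cells held 790 ± 214 CPM (570, 803 and 998 in pools 1, 2 and 3), macrophage-like cells 334 ± 14, lymphoid progenitor-like cells 252 ± 25.9 and HSC/MPP-like cells 177 ± 21.4. B cell-like cells were at 127 ± 6.96, GMP-like cells at 115 ± 13.6 and erythroid/MEP-like cells at 35.4 ± 6.38 CPM. The neutrophil-like class was thus low in H2-K1 and high in Ptprc in every pool, and the erythroid/MEP-like class low in both. Because neutrophil-like barcodes were small, with a median of 3471 gene UMIs against 9731 in HSC/MPP-like and 18450 in erythroid/MEP-like barcodes, H2-K1 came to 0.804 ± 0.0381 UMIs per neutrophil-like barcode and 7.64 per HSC/MPP-like barcode, and Ptprc to 3.39 per neutrophil-like barcode.

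These orders hold for sums over all barcodes of a pool, and some turned in the singlets of single mice. Neutrophil-like cells were below GMP-like cells in H2-K1 in 7 of 9 mice and above them in the vehicle mice of pools 2 (389 against 244 CPM) and 3 (299.8 against 243 CPM). In H2-D1 they lay below HSC/MPP-like cells in the NTB mice (449, 472 and 358 against 745, 746 and 666 CPM) and above them in vehicle mice 1 and 3 (762 and 949 against 658 and 575 CPM), numbered by pool. They were also above HSC/MPP-like cells in BRQ mice 1 and 3 (688 and 975 against 656 and 684 CPM) and below in BRQ mouse 2 (699 against 778 CPM). Macrophage-like cells exceeded B cell-like cells in H2-K1 in both pool 3 mice with both classes (818 against 713 CPM in NTB and 926 against 905 CPM with BRQ), and B cell-like cells were higher in the BRQ mouse of pool 1 (1022 against 740 CPM). In Ptprc the neutrophil-like class was the highest measured in each of the 9 mice.

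**Figure D1:**
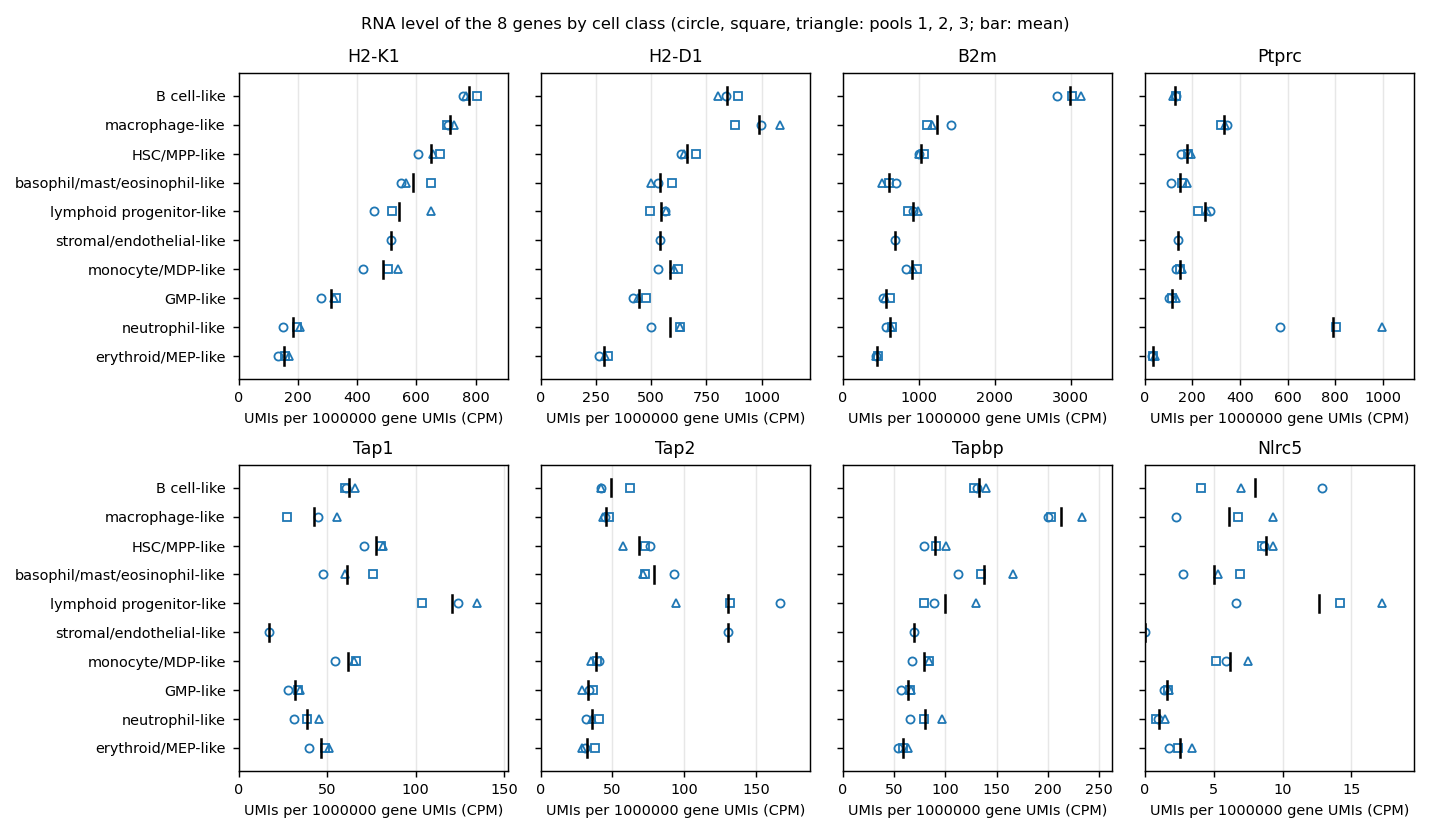
RNA level of each of the 8 genes (x axes, CPM) in the named cell classes (rows), with pools 1, 2 and 3 as circle, square and triangle and a bar at the mean. H2-K1 falls from 777 CPM in B cell-like to 154 CPM in erythroid/MEP-like cells, while Ptprc is at 790 CPM in neutrophil-like cells.

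Over the 28 sums of pool and class, the genes whose levels were most like those of the members were, for H2-K1, Man2a2 (Pearson r = 0.911 of log2(CPM + 1)), Fndc3a (0.896) and Tmem176a (0.893), and, for Ptprc, Iqgap1 (0.962), Zyx (0.956) and Arhgap25 (0.949), among 6351 genes. For B2m they were Nek7 (0.86) and the immunoglobulin heavy chain gene Ighm (0.853). Among the members, H2-D1 was at r = 0.796 with Tapbp, 0.781 with B2m and 0.772 with H2-K1, and Tap1 at 0.821 with Nlrc5. Ptprc was at 0.175 with H2-K1. These sums share pools and clusters, and the correlations are descriptions.

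The hashtag readout was set beside these levels class by class. The share of barcodes called negative was 68.9% ± 10.3 in erythroid/MEP-like cells (75.6%, 74.1% and 57.0% in the 3 pools), 55.2% ± 15.3 in neutrophil-like cells (60.0%, 67.6% and 38.1%) and 32.2% ± 10.8 in GMP-like cells (23.8%, 44.5% and 28.4%). It was 33.7% ± 10.5 in HSC/MPP-like, 24.8% ± 4.29 in B cell-like and 23.1% ± 9.15 in monocyte/MDP-like cells. The classes next to each other in this order overlapped between pools. With the lower positive quantile of 0.95 the shares were 55.4% in erythroid/MEP-like, 36.7% in neutrophil-like, 19.3% in HSC/MPP-like, 18.1% in GMP-like and 12.2% in monocyte/MDP-like cells.

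Hashtag UMIs per barcode differed less between classes than the negative share did. The median was 1456 ± 357 UMIs in erythroid/MEP-like, 1661 in neutrophil-like, 1834 in HSC/MPP-like, 1898 in GMP-like, 2004 in monocyte/MDP-like and 2265 ± 564 in basophil/mast/eosinophil-like cells. All neighbours in the order overlapped between pools. Over pooled barcodes the 2 classes lowest in H2-K1 CPM thus had the lowest medians of raw hashtag UMIs and the highest negative shares, and of these the neutrophil-like class was the highest in Ptprc. That order depended on the scale. CPM is divided by depth and the hashtag median is not, and per 1000 gene UMIs the hashtag signal was 447 ± 160 UMIs in neutrophil-like cells, with 2 of the 10 classes above it, against 92.0 ± 16.7 in erythroid/MEP-like cells, the lowest.

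Across the 10 classes, Pearson r between log2 H2-K1 CPM and the negative share was -0.867 (Spearman rho -0.576), and between H2-K1 and the log2 hashtag median 0.708 (rho 0.491). With the erythroid/MEP-like and neutrophil-like classes left out, these were -0.253 and 0.093 over 8 classes, so the relation rested on those classes. H2-D1 gave r = -0.684 with the negative share and 0.507 with the hashtag median, and -0.212 and 0.036 without its 2 farthest classes. B2m gave -0.569 and 0.364, then -0.305 and -0.04.

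Ptprc gave r = -0.162 with the negative share and 0.193 with the hashtag median over the 10 classes, and 0.268 and -0.183 over 8. Counted as UMIs per barcode, H2-K1 was at r = -0.519 with the negative share and 0.299 with the hashtag median. With hashtag UMIs per 1000 gene UMIs, r was 0.373 for H2-K1 CPM, -0.512 for H2-K1 UMIs per barcode and 0.495 for Ptprc CPM, so the sign for H2-K1 changed with the scale. The classes share pools and differ in depth, and none of these correlations was tested.

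**Figure D2:**
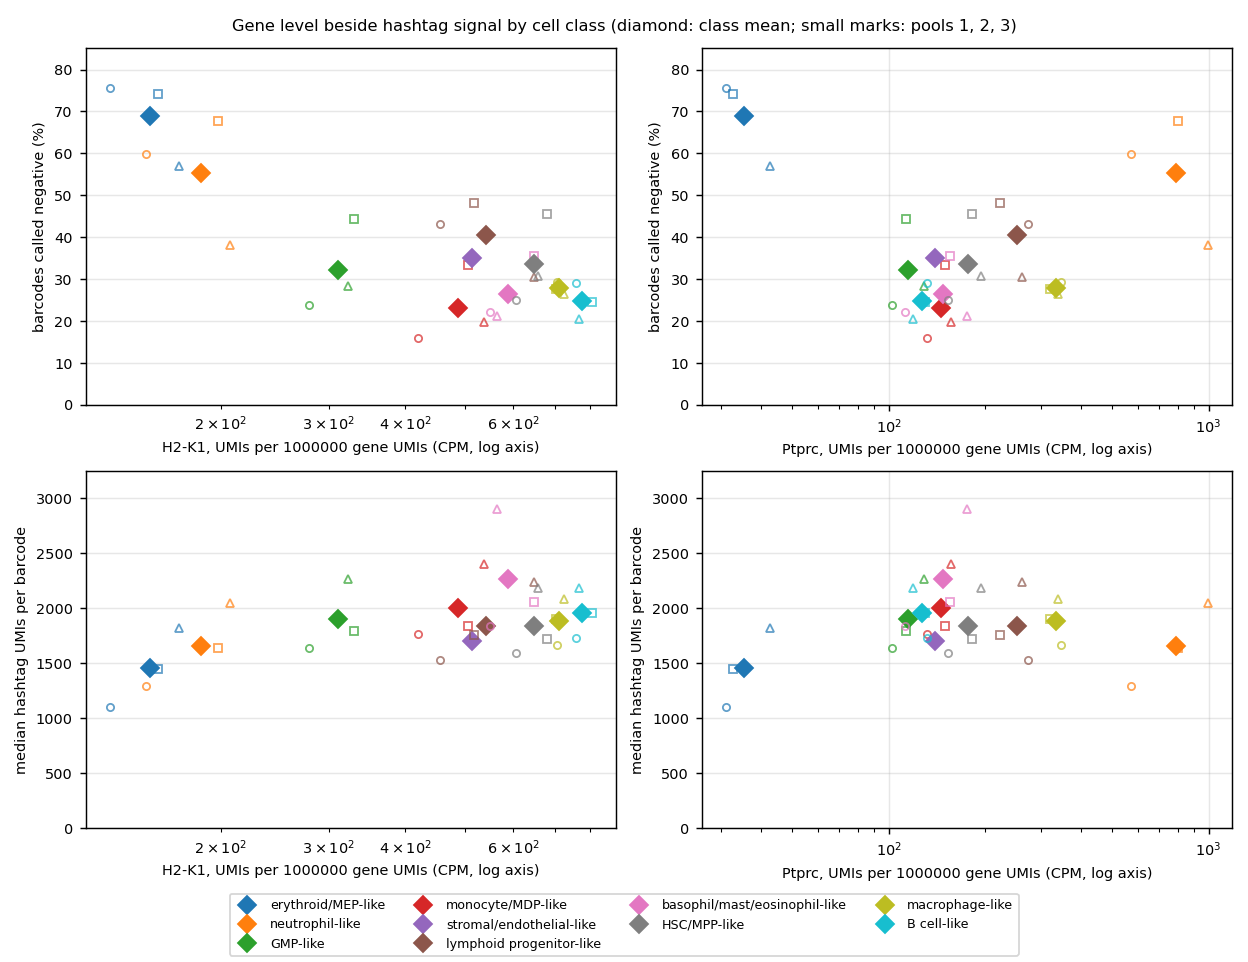
Share of barcodes called negative (top, %) and median hashtag UMIs per barcode (bottom) against the H2-K1 (left) and Ptprc (right) level of each cell class (log axes, CPM), with diamonds for class means and small marks for pools. Erythroid/MEP-like and neutrophil-like cells lie apart at low H2-K1 and high negative share (68.9% and 55.2%), whereas on the Ptprc axis they lie at opposite ends.

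The neutrophil-like class was itself mixed. Cluster 1 held Ptprc at 2195 ± 6.67 CPM, cluster 9 at 889 ± 27.5 and cluster 3 at 303 ± 10.4, and H2-D1 at 1310 ± 113, 549 and 366 CPM. H2-K1 was at 347 ± 11.5 CPM in cluster 1, 145 in cluster 9 and 143 ± 16.2 in cluster 3. The negative share did not keep that order: it was 25.4%, 72.5% and 47.4% in pools 1, 2 and 3 in cluster 1 and 77.0%, 62.6% and 18.4% in cluster 3. In cluster 3 Ptprc was 292, 312 and 306 CPM and H2-K1 126, 158 and 145 CPM in the same pools. The hashtag signal also differed between these pools, and its part in the negative share was not tested.

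Group comparisons used counts summed per mouse over the singlets of a class, tested with edgeR, and each mouse's value is its TMM-scaled CPM (adjusted for composition). Each group carried the same hashtag in all 3 pools, so group and hashtag cannot be told apart in any group comparison. GMPs were singlets with high Ms4a3, the gene the study used to mark them. In GMPs, H2-K1 was 340, 280 and 249 CPM in NTB mice of pools 1, 2 and 3, 256, 228 and 228 CPM in vehicle mice and 322, 409 and 360 CPM in BRQ mice. H2-D1 was 497, 426 and 360 CPM in NTB mice, against 384, 365 and 336 CPM in vehicle mice and 506, 562 and 501 CPM with BRQ. For both heavy chains every BRQ mouse lay above every vehicle mouse. NTB and vehicle mice overlapped, at log2 differences of -0.26 for H2-K1 (adjusted p = 0.129) and -0.23 for H2-D1 (adjusted p = 0.164).

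Against vehicle, BRQ raised 3 of the 7 members tested in GMPs (13.4% of 10331 genes were called): H2-K1 by 0.61 on the log2 scale (SE 0.10, adjusted p = 0.000308), H2-D1 by 0.53 (SE 0.10, adjusted p = 0.00077) and Ptprc by 0.36 (SE 0.09, adjusted p = 0.00973). The H2-K1 call (0.52 to 0.69) and the H2-D1 call (0.48 to 0.58) were kept without each mouse in turn. Ptprc was 92.9, 103 and 111 CPM in vehicle and 126, 124 and 143 CPM in BRQ mice, without overlap. Its call was lost without the vehicle mouse of pool 1 (log2 change 0.27, adjusted p = 0.129) and with tag-ratio calls (0.33, adjusted p = 0.0547). B2m was 550, 519 and 523 CPM in vehicle and 565, 729 and 580 CPM in BRQ mice, a log2 difference of 0.23 (adjusted p = 0.123; 0.22 with pool as replicate block, adjusted p = 0.0247, where 20.4% of genes were called). Tap1 (0.26), Tap2 (0.08) and Tapbp (0.13) did not pass the test.

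GMPs came from several clusters, and cluster 0 held 40.9% to 45.2% of them in NTB, 27.6% to 35.3% in vehicle and 23% to 36.6% in BRQ mice. Within cluster 0 alone the BRQ to vehicle differences were 0.82 for H2-K1 (adjusted p = 9.9e-06), 0.50 for H2-D1 (adjusted p = 0.00281) and 0.42 for Ptprc (adjusted p = 0.0199), with 7.42% of genes called. Of the markers of free RNA, genes abundant in some cells of the marrow, 4 of 6 were lower in BRQ than in vehicle mice within cluster 0 (median -0.43) and 2 of 7, Mpo and S100a9, over all GMPs. GMP-like cells themselves held 5616 to 6369 CPM of Mpo and 9224 to 10738 CPM of Elane, which is also on the list. In GMPs these 2 genes do not separate free RNA from the cells' own RNA. The 10 markers of the HSC/MPP class, whose cells held more H2-K1, summed to 132 to 156 CPM in the GMPs of BRQ mice, 72.8 to 76.2 in those of vehicle mice and 70.6 to 87.5 in those of NTB mice, with 0 to 4 of them at 0 in a mouse. The 10 monocyte/MDP markers summed to 101 to 155 CPM in BRQ, 56.6 to 69.4 in vehicle and 56.1 to 72.5 in NTB mice, with 0 to 4 at 0. Other lists were also higher in the GMPs of BRQ than of vehicle mice, without overlap: the 10 basophil/mast/eosinophil markers (185 to 202 against 85.5 to 113 CPM, 0 to 4 at 0), the 6 lymphoid progenitor markers (60.2 to 64.6 against 33.2 to 37.9, 0 to 3 at 0), the 10 B cell markers (25.1 to 31.6 against 18.7 to 20.5, 1 to 6 at 0) and the 8 stromal/endothelial markers (7.06 to 11.8 against 3.61 to 5.6, 2 to 7 at 0). Each of these classes held more H2-K1 than GMP-like cells did. The 10 erythroid/MEP markers were lower (80.4 to 118 against 121 to 136, 0 to 6 at 0), and the part of these lists and of free RNA in the result was not tested.

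Tapbp was the member that set NTB apart in GMPs. It was 74.1, 70.9 and 83.3 CPM in NTB mice, against 51.0, 58.9 and 50.7 in vehicle mice and 55.9, 58.7 and 57.5 with BRQ, so each NTB mouse lay above all tumor-bearing mice. Against NTB, Tapbp was lower by a log2 change of -0.55 in vehicle mice (SE 0.11, adjusted p = 0.00184) and -0.42 in BRQ mice (SE 0.10, adjusted p = 0.0151). The latter call was lost on leaving out the pool 3 NTB mouse (-0.34, adjusted p = 0.154), and 2 or 3 members were called in BRQ against NTB when NTB mouse 1 or BRQ mouse 1 or 3 (numbered by pool) was left out. Neither Tapbp call was made within cluster 0 (-0.47, adjusted p = 0.0736, and -0.41, adjusted p = 0.152). There the 1 member called between vehicle and NTB was H2-K1, at -0.60 (adjusted p = 0.0073, 3.7% of genes called), and none was called between BRQ and NTB by edgeR (2.47% of genes).

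Markers of other cells also set the NTB GMPs apart. The 7 macrophage markers, whose class was the highest in Tapbp, summed to 272 to 311 CPM in NTB, 161 to 175 in vehicle and 65.3 to 196 in BRQ mice, with 0 to 2 of them at 0. The 14 neutrophil markers summed to 46186 to 49665, 33518 to 37271 and 26149 to 37558 CPM, with none at 0 in any mouse. Between NTB and vehicle mice 4 further lists were higher in NTB without overlap: the B cell markers, whose class was the highest in B2m (29.97 to 50.1 against 18.7 to 20.5 CPM, 2 to 6 at 0), the basophil/mast/eosinophil markers (123 to 179.9 against 85.5 to 113, 1 to 6 at 0), the lymphoid progenitor markers (41.1 to 63.8 against 33.2 to 37.9, 0 to 4 at 0) and the T/NK markers (1103 to 1343 against 1018 to 1085, 5 to 6 at 0). Of the 7 markers of free RNA, 4 were lower in vehicle and 5 in BRQ than in NTB mice, and Mpo, a gene of GMPs themselves, was among both. The part of these lists and markers in the Tapbp and B2m results was not tested.

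B2m also fell between NTB (722, 659 and 609 CPM) and vehicle GMPs, by a log2 change of -0.32 (SE 0.10, adjusted p = 0.0441), with no overlap. That call was lost when 1 of 5 mice was left out: NTB of pool 1 (adjusted p = 0.157) or pool 2 (adjusted p = 0.127), or vehicle of pool 1 (adjusted p = 0.0855), pool 2 (adjusted p = 0.139) or pool 3 (adjusted p = 0.115). In all, 2 of 7 members were called in vehicle against NTB (11.3% of genes) and 1 of 7 in BRQ against NTB (6.01%).

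With pool as replicate block, 4 members were called in each of these GMP comparisons with NTB (16.4% of genes for vehicle and 11.8% for BRQ). Vehicle against NTB then included H2-K1 (-0.25, adjusted p = 0.0498) and H2-D1 (-0.22, adjusted p = 0.0405). BRQ against NTB then included H2-K1 (0.35, adjusted p = 0.00315), H2-D1 (0.31, adjusted p = 0.00292) and Ptprc (0.30, adjusted p = 0.0124), which without the block stood at adjusted p = 0.0571, 0.0784 and 0.102.

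**Figure D3:**
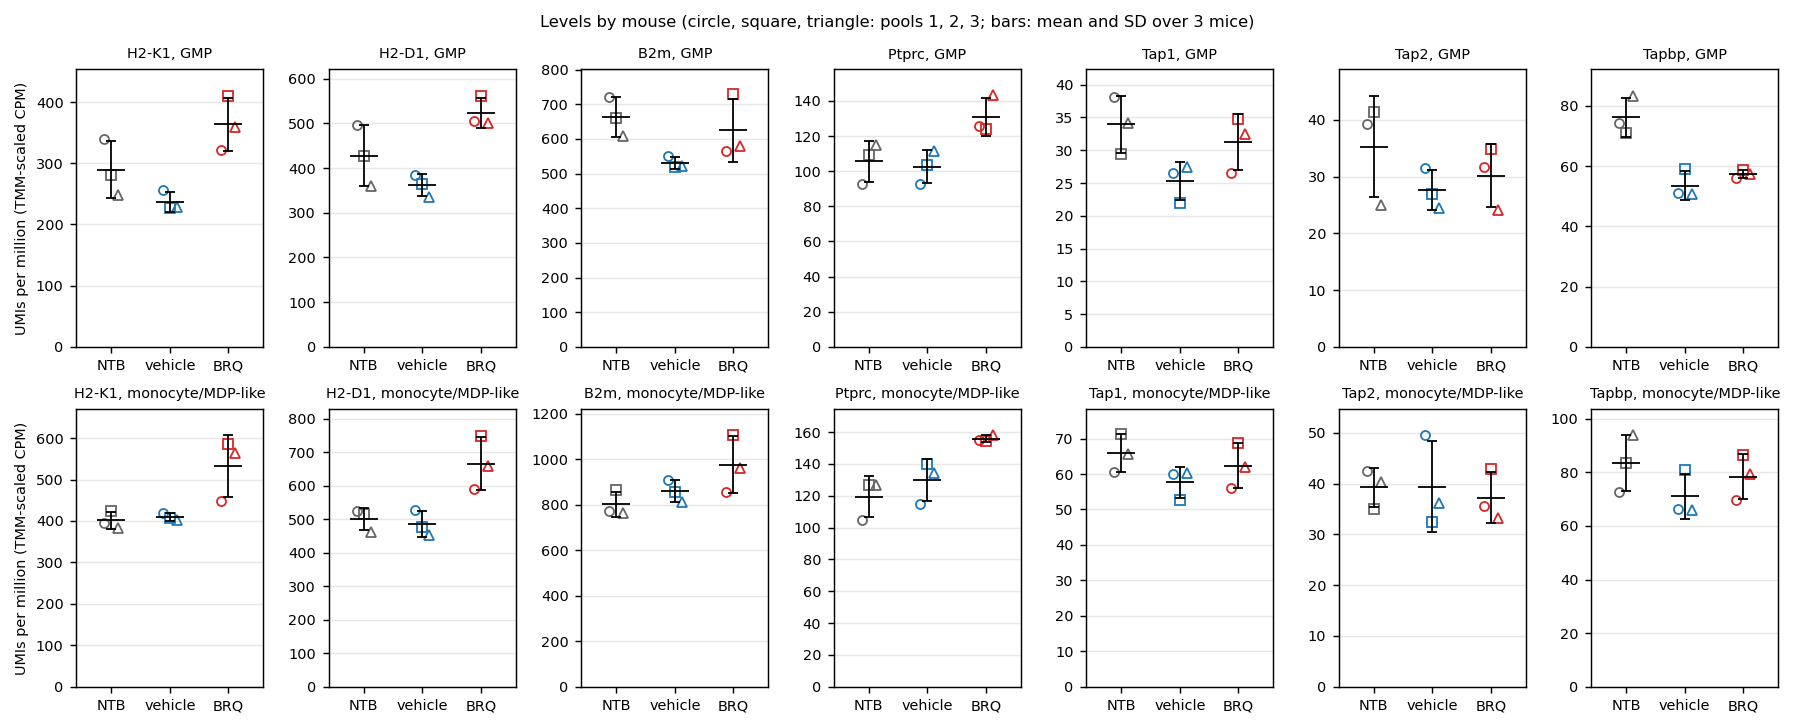
Level of 7 of the members in each mouse (y axes, TMM-scaled CPM) in GMPs (top) and monocyte/MDP-like cells (bottom), with pools 1, 2 and 3 as circle, square and triangle and bars for mean and SD over 3 mice. H2-K1 and H2-D1 of the BRQ mice lie above all vehicle mice in both cell types, and Tapbp of the NTB mice lies above all others in GMPs only.

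Tap1 in GMPs was 38.2, 29.5 and 34.2 CPM in NTB mice, against 26.5, 21.9 and 27.4 in vehicle mice and 26.5, 34.8 and 32.5 with BRQ, and Tap2 ranged from 24.1 to 41.4 CPM over all mice. Neither was called in any GMP comparison. Nlrc5 had 1 to 16 UMIs per mouse in GMPs and was not tested there.

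Beyond the members, few of the other heavy chain genes were called in GMPs. Of 10 tested, 2 were lower in vehicle than in NTB mice, H2-Q4 (-0.72) and the riboflavin-metabolite presenter Mr1 (-1.71), and 2 were higher in BRQ than in vehicle mice, H2-Q7 (0.67) and Mr1 (1.28), with 11.3% and 13.4% of all genes called. Their median log2 changes were -0.33 and 0.23, against -0.014 and 0.001 over all genes tested. Of the genes of peptide supply and loading, 3 of 10 were higher in vehicle than in NTB, the endoplasmic reticulum chaperones Calr (0.70), Pdia3 (0.59) and Canx (0.38), and 6 of 10 were lower in BRQ than in vehicle. The 4 with the smallest p were Calr (-1.03), Pdia3 (-0.89), Canx (-0.40) and the proteasome activator subunit Psme2 (-0.46).

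Against NTB, 4 of these 10 were lower in the GMPs of BRQ mice (Psme1 -0.46, Calr -0.32, Psme2 -0.41 and Pdia3 -0.31), where 6.01% of all genes were called, and none of the 10 heavy chains was called. Of 15 class I regulators, the NF-κB subunit gene Nfkb1 was lower in vehicle than in NTB (-0.33) and higher in BRQ than in vehicle (0.36), and Nfyb, a subunit of the CCAAT-binding factor, was lower in BRQ than in vehicle (-0.39). These were 1 and 2 of 15, near the 11.3% and 13.4% called over all genes. None of 9 CD45 partners and Src-family genes was called in the GMP group comparisons with edgeR.

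Monocyte/MDP-like cells (monocyte and monocyte-dendritic progenitors) also held more heavy chain RNA in BRQ mice, and whether the size of the difference varied between them and GMPs was not tested. H2-K1 was 396, 424 and 384 CPM in NTB mice, against 420, 407 and 402 in vehicle mice and 448, 586 and 564 with BRQ. H2-D1 was 525, 516 and 462 CPM in NTB mice, against 529, 476 and 455 in vehicle mice and 591, 750 and 658 with BRQ. In both genes the BRQ mice lay above all others, with the BRQ mouse of pool 1 nearest to them.

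Against vehicle, H2-K1 was 0.38 higher on the log2 scale (SE 0.10, adjusted p = 0.0265) and H2-D1 0.45 higher (SE 0.10, adjusted p = 0.00935), which were 2 of 8 members called (4.98% of genes). Against NTB, H2-K1 was 0.41 higher (SE 0.10, adjusted p = 0.027) and H2-D1 0.42 higher (SE 0.10, adjusted p = 0.0248), again 2 of 8 (2.77% of genes). These calls were not stable to single mice. Against vehicle, the H2-K1 call was lost without any 1 of the vehicle mice of pools 1, 2 and 3 (adjusted p = 0.0777, 0.094 and 0.0812) or the BRQ mice of pools 2 and 3 (0.141 and 0.0746), and the H2-D1 call without the vehicle (0.0518) or the BRQ mouse (0.0674) of pool 2. Against NTB, H2-K1 was lost without any NTB mouse (0.0831, 0.094 and 0.134) or the BRQ mice of pools 2 and 3 (0.114 and 0.107), and H2-D1 without the NTB mice of pools 2 and 3 (0.108 and 0.144) or the BRQ mice of pools 2 and 3 (0.117 and 0.0513).

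The 10 HSC/MPP markers, whose class held more H2-K1 (648 against 487 CPM), moved with these values. They summed to 299.7 to 343 CPM in the monocyte/MDP-like cells of BRQ mice, 207 to 232 in those of vehicle and 212 to 286 in those of NTB mice, with 0 to 2 of them at 0. Between BRQ and vehicle mice the 7 macrophage markers (12.8 to 15.8 against 7.62 to 12.48 CPM, 0 to 3 at 0), the 8 T/NK markers (221 to 237 against 119 to 179, 4 to 6 at 0) and the class's own 10 markers (2163 to 2368 against 1631 to 2067, 0 to 1 at 0) did not overlap either. Between BRQ and NTB mice the basophil/mast/eosinophil markers were higher (75.7 to 89.8 against 52.7 to 59.7, 2 to 5 at 0) and the macrophage markers lower (17.3 to 38.4 in NTB), without overlap. Of the 6 markers of free RNA tested, 1 was higher in BRQ than in vehicle mice and 0 were called against NTB by edgeR. Their part in the result was not tested.

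Ptprc in monocyte/MDP-like cells was 105, 127 and 127 CPM in NTB mice, against 115, 140 and 134 in vehicle mice and 155, 154 and 158 with BRQ. The BRQ mice lay above all others, at log2 differences of 0.30 from vehicle (adjusted p = 0.0692) and 0.36 from NTB (adjusted p = 0.0557). With pool as replicate block Ptprc was called in both (0.29, adjusted p = 0.0234, and 0.37, adjusted p = 0.00976), and B2m was called against NTB (0.28, adjusted p = 0.0166), where 4 members then passed (8.24% of genes against vehicle and 4.83% against NTB). B2m was 773, 865 and 765 CPM in NTB mice, against 910, 857 and 812 in vehicle mice and 857, 1107 and 962 with BRQ. Without the block, 1 of 8 other heavy chains, H2-Q7, was 0.93 higher in BRQ than in vehicle mice. Of 10 supply and loading genes 2, Calr (-0.68) and Pdia3 (-0.52), were lower, with 4.98% of all genes called.

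Between vehicle and NTB no member was called in monocyte/MDP-like cells by edgeR (0 of 8, 3.26% of genes called, 1681 genes under an unadjusted p of 0.05) or by DESeq2 (0). The differences ranged from -0.31 for Tapbp to 0.69 for Nlrc5, the latter at 2 to 40 UMIs per mouse.

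In HSC/MPP-like cells 1 member, the pump gene Tap1, was called, between NTB and each tumor-bearing group. Tap1 was 98.3, 88.6 and 105 CPM in NTB mice, 70.0 and 75.6 in the vehicle mice of pools 1 and 3 and 69.4, 79.7 and 73.2 in BRQ mice. The vehicle mouse of pool 2 had 15 such cells and was left out. All NTB mice lay above all tumor-bearing mice.

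Tap1 was lower by a log2 change of -0.45 in vehicle (SE 0.13, adjusted p = 0.0291) and -0.41 in BRQ mice (SE 0.11, adjusted p = 0.0154), in each case the 1 called of 8 members (9.93% and 14.2% of genes). As a count, 1 of 8 lay near the share over all genes. The vehicle call was lost on leaving out NTB mouse 1 (adjusted p = 0.0512) or 3 (0.168) or vehicle mouse 1 (0.319) or 3 (0.0663), and the BRQ call on leaving out NTB mouse 3 (0.153) or BRQ mouse 1 (0.0541), numbered by pool. With DESeq2 neither was called (adjusted p = 0.0814 and 0.101). With pool as replicate block, B2m (-0.22, adjusted p = 0.0318) and Tap2 (-0.43, adjusted p = 0.013) joined Tap1 in BRQ against NTB (17.4% of genes).

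The make-up of the HSC/MPP-like class moved with Tap1. Its own 10 markers summed to 1835 to 1922 CPM in NTB, 1208 to 1290 in vehicle and 1181 to 1460 in BRQ mice. The 8 GMP markers, whose class held less Tap1 (32.1 against 77.8 CPM), summed to 4765 to 7142, 9166 to 9310 and 9146 to 11945 CPM, and none of either list was at 0 in any mouse. The dendritic cell (359 to 402 CPM in NTB, 275 to 310 in vehicle, 279 to 332 in BRQ, 4 to 6 of 10 at 0), erythroid/MEP (237 to 294, 175 to 179, 151 to 185, 0 to 4 of 10 at 0) and megakaryocyte markers (83.4 to 109, 54.4 to 80.2, 44.7 to 58.1, 1 to 3 of 8 at 0) were higher in NTB without overlap, and the T/NK markers lower (160 to 168, 179 to 233, 190 to 274, 4 to 5 of 8 at 0). Of the 7 markers of free RNA, 1 was higher and 1 lower in vehicle and 2 higher and 1 lower in BRQ than in NTB mice. Their part in the result was not tested. Cluster 7 held 73.1% to 77.1% of these cells in NTB, 56.8% and 60.8% in vehicle and 49.2% to 58.2% in BRQ mice. Within cluster 7 alone Tap1 differed by -0.44 in vehicle (adjusted p = 0.534) and -0.44 in BRQ mice (adjusted p = 0.278), and no member was called by edgeR (0.309% and 0.495% of genes were).

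H2-K1 in HSC/MPP-like cells was 774, 773 and 725 CPM in NTB mice, against 647 and 600 in vehicle mice and 636, 722 and 664 with BRQ. NTB mice lay above the others without reaching the threshold (log2 differences -0.28, adjusted p = 0.0843, and -0.17, adjusted p = 0.227). BRQ and vehicle mice did not differ in any member by edgeR (0 of 8; 0.0187% of genes, 2 in all, with 651 under an unadjusted p of 0.05) or DESeq2 (0 of 8). Of 11 other heavy chains, 3 were lower in vehicle than in NTB (H2-Q7 -0.64, H2-T23 -0.64 and H2-Q4 -0.63) and 5 in BRQ than in NTB, led by H2-T23 (-0.82), H2-Q4 (-0.76), the lipid presenter Cd1d1 (-0.76) and H2-T22 (-0.47), with 9.93% and 14.2% of all genes called.

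Calr (0.82 and 0.47) and Pdia3 (0.62 and 0.37) were higher than in NTB in the HSC/MPP-like cells of vehicle and BRQ mice, among 4 and 2 of 10 supply and loading genes. The interferon regulator Irf2 was lower in both (-0.40 and -0.56) and Irf9, part of the interferon-activated complex, in BRQ mice (-0.68), which were 1 and 2 of 15 regulators. Over all genes 9.93% and 14.2% were called in these comparisons, so the regulators and the 2 of 10 lay near the background. None of the 10 tested CD45 partners was called by edgeR in these comparisons.

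Neutrophil-like cells had the widest spread of Ptprc. It was 415, 444 and 392 CPM in NTB mice, against 1202, 1538 and 1791 in vehicle mice and 888, 943 and 1493 with BRQ. H2-D1 was 502, 498 and 354 CPM in NTB mice, against 807, 952 and 906 in vehicle mice and 698, 725 and 921 with BRQ. In both genes NTB mice lay below all tumor-bearing mice, while vehicle and BRQ mice overlapped.

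Vehicle mice exceeded NTB mice in 4 of 7 members (33.2% of genes were called): Ptprc by 1.86 (SE 0.22, adjusted p = 2.84e-05), H2-D1 by 0.98 (SE 0.19, adjusted p = 0.00117), Tapbp by 0.67 (SE 0.21, adjusted p = 0.0214) and H2-K1 by 0.64 (SE 0.21, adjusted p = 0.0298). H2-K1 was 191, 190 and 155 CPM in NTB and 202, 360 and 286 in vehicle mice, and its call was lost on leaving out NTB mouse 1 (adjusted p = 0.0547), 2 (0.0637) or 3 (0.14) or vehicle mouse 2 (0.123) or 3 (0.0959). Tapbp was 72.2, 63.1 and 80.1 CPM in NTB and 86.6, 121 and 140 in vehicle mice, and was lost on leaving out NTB mouse 2 (0.102) or vehicle mouse 2 (0.0521) or 3 (0.17). Tap1 was 36.1, 36.8 and 34.8 CPM in NTB and 37.0, 67.3 and 68.3 in vehicle mice (0.63, adjusted p = 0.0566; 0.72 with pool as replicate block, adjusted p = 0.0136, where 39.6% of genes were called).

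BRQ mice exceeded NTB mice in Ptprc by 1.41 (SE 0.22, adjusted p = 0.000405) and in H2-D1 by 0.80 (SE 0.19, adjusted p = 0.00723), 2 of 7 members (20.1% of genes). The H2-D1 call was lost on leaving out the pool 3 NTB mouse (0.64, adjusted p = 0.065). No member was called between BRQ and vehicle mice by edgeR (0 of 7; 0.145% of genes, 11 in all, with 1036 under an unadjusted p of 0.05) or by DESeq2 (0 of 7, 60 genes in all), and the Ptprc difference was -0.45 (adjusted p = 0.374). Without the vehicle mouse of pool 1 there was 1 call and without the BRQ mouse of pool 3 there were 2.

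The make-up of the class moved with these values. Cluster 3, where Ptprc was at 303 CPM, held 77.1%, 70.3% and 76% of the neutrophil-like cells of the NTB mice, 17.4%, 8.2% and 4.88% of the vehicle and 27.6%, 25.7% and 4.82% of the BRQ mice. Cluster 1, where Ptprc was at 2195 CPM, held 10.8%, 10.1% and 6.05% of the NTB, 73.7%, 89.3% and 90.7% of the vehicle and 56.8%, 54.5% and 81.2% of the BRQ cells. Within cluster 3 alone no member was called between vehicle and NTB by edgeR (36 of 5735 genes were), and the differences were -0.09 for Ptprc, -0.27 for H2-D1, -0.56 for H2-K1 and -0.19 for Tapbp. Between BRQ and NTB the 1 member called within cluster 3 was Tap1, lower at -0.91 (adjusted p = 0.0407, 3.68% of genes), and neither Ptprc (0.07) nor H2-D1 (0.22) was called. Within cluster 1 alone none was called between vehicle and NTB either (62 of 4818 genes were), at 0.22 for Ptprc, 0.09 for H2-D1, -0.38 for H2-K1 and 0.24 for Tapbp. Between BRQ and vehicle no member was called by edgeR within cluster 3 (0.157% of genes) or cluster 1 (4.82%). H2-K1, H2-D1, B2m and Ptprc differed by 0.74, 0.49, 0.48 and 0.16 in cluster 3 and by -0.06, 0.11, -0.15 and -0.02 in cluster 1. Over the whole class these differences were -0.21, -0.18, -0.20 and -0.45. Each of these fits within a cluster held 8 mice.

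Marker lists also set the neutrophil-like cells of NTB mice apart from those of both tumor-bearing groups. The 14 neutrophil markers summed to 394734 to 425115 CPM in NTB, 263366 to 352988 in vehicle and 256333 to 353024 in BRQ mice, with none at 0. The 7 macrophage markers were higher in NTB (50.8 to 79.0, against 7.16 to 49.0 and 17.5 to 26.7, 0 to 6 at 0). Lower in NTB were the monocyte/MDP markers (24.5 to 30.5, against 86.1 to 149.9 and 57.4 to 111, 0 to 4 at 0), the basophil/mast/eosinophil markers (115 to 146, against 315 to 504 and 258 to 464, 1 to 5 at 0), the B cell markers (7.18 to 7.53, against 11.9 to 14.3 and 9.98 to 11.5, 3 to 7 at 0) and the stromal/endothelial markers (2.35 to 5.38, against 8.69 to 15.7 and 6.29 to 12.2, 3 to 7 at 0). Of the 7 markers of free RNA, 3 were called between vehicle and NTB (Ltf, Camp and Mpo, 1 higher and 2 lower) and 0 between BRQ and NTB by edgeR. Ltf (6770 to 8307 CPM) and Camp (30448 to 47812 CPM) are genes of this class itself and were among the top genes of cluster 3. In this class they do not separate free RNA from the cells' own RNA. The part of the make-up and of these lists in the results was not tested beyond the values within single clusters.

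**Figure D4:**
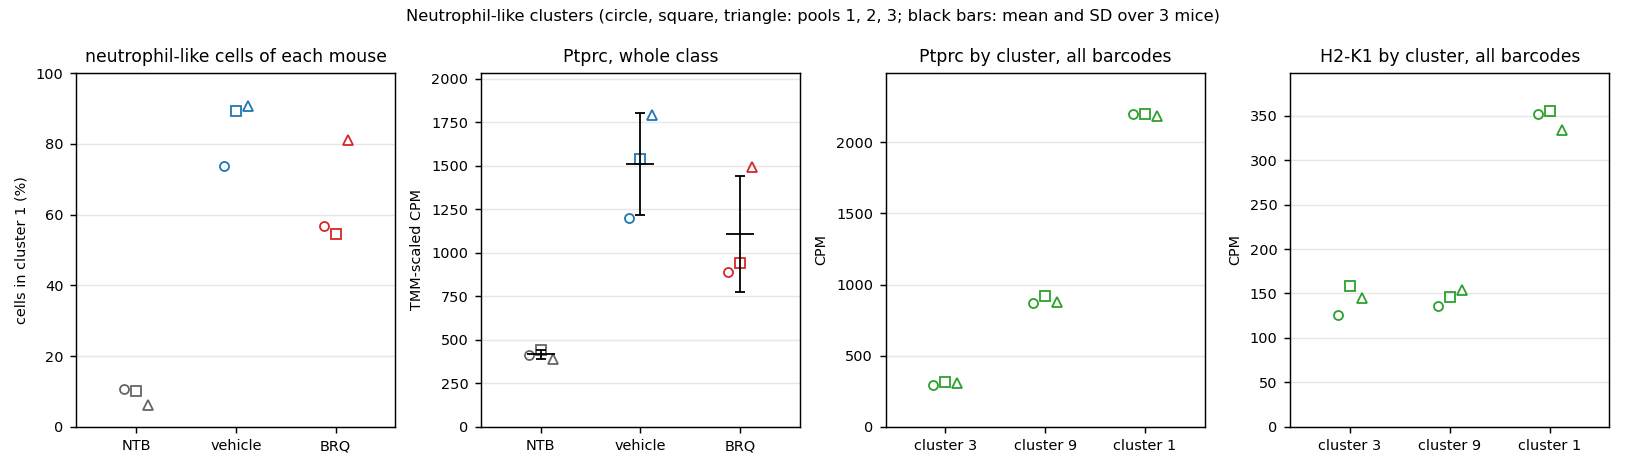
From left to right: share of each mouse's neutrophil-like cells in cluster 1 (%), Ptprc of the whole class per mouse (TMM-scaled CPM, with mean and SD over 3 mice), and Ptprc and H2-K1 by cluster over all barcodes (CPM), with pools 1, 2 and 3 as circle, square and triangle. NTB mice are low in both the cluster 1 share (6.05% to 10.8%) and Ptprc (392 to 444 CPM), and cluster 1 holds 2195 CPM of Ptprc against 303 CPM in cluster 3.

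The partners of CD45 moved in the same comparison. Of 9 tested CD45 partners and Src-family genes, 8 were called between vehicle and NTB neutrophil-like cells, 6 higher and 2 lower, with 33.2% of all genes called. Among those with the smallest p were Spn (-1.57), which encodes the surface sialoglycoprotein CD43, and the Src-family kinases Fgr (1.44) and Lyn (1.31). In BRQ against NTB 7 of 9 were called, 6 higher and 1 lower (20.1% of genes). Within single clusters nearly none was: for vehicle against NTB 0 of 8 in cluster 3 and 0 of 7 in cluster 1 by edgeR, and for BRQ against NTB 1 of 8 and 0 of 7. Of 14 regulators, 6 were higher in vehicle than in NTB, led by the interferon regulators Irf1 (1.62), Irf2 (0.96) and Irf9 (1.17) and the NF-κB subunit gene Rela (0.62), and of 4 other heavy chains H2-T23 was (1.73), beside 33.2% of all genes. Over the whole class the list medians were 0.98 for the CD45 partners and 0.25 for the regulators, beside -0.063 over all genes tested. In that comparison 0 of 13 regulators were called by edgeR within cluster 3 (median -0.089) and 0 of 13 within cluster 1 (median -0.15). Of the other heavy chains 0 of 2 and 0 of 3 were.

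The GMP and neutrophil-like responses were compared in 1 fit with the mouse as block. For vehicle against NTB, 6 of 7 members differed between the responses (25.1% of genes): the GMP response was lower in Ptprc (-1.97, adjusted p = 7.44e-08), H2-D1 (-1.29, adjusted p = 1.34e-05), Tapbp (-1.27, adjusted p = 0.000196), Tap1 (-1.02, adjusted p = 0.00919), H2-K1 (-0.94, adjusted p = 0.00161) and B2m (-0.67, adjusted p = 0.00652). For BRQ against vehicle, 3 of 7 did (2.41% of genes): the GMP response was higher in Ptprc (0.79, adjusted p = 0.0205), H2-K1 (0.76, adjusted p = 0.0416) and H2-D1 (0.69, adjusted p = 0.0398). The 3 BRQ against vehicle calls were lost together without the vehicle mouse of pool 2 (adjusted p = 0.0539 for Ptprc, 0.205 for H2-K1 and 0.108 for H2-D1) or pool 3 (0.209, 0.327 and 0.307), or without the BRQ mouse of pool 1 (0.148, 0.168 and 0.176) or pool 2 (0.1, 0.162 and 0.221), while 5 and 6 members were called without the vehicle mouse of pool 1 and the BRQ mouse of pool 3. Without any 1 of the NTB mice only Ptprc remained. In vehicle against NTB, B2m was lost on leaving out the pool 1 NTB mouse (0.062) and Tap1 without the NTB (0.0717) or vehicle (0.119) mouse of pool 3. With neutrophil-like cells of cluster 3 only, no member passed in either comparison by edgeR (0.756% and 1.47% of genes did), and with cluster 1 only, 2 and 0 did (2.16% and 1.09% of genes).

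Barcodes that the hashtag call left out were then compared with singlets of the same pool and class. In GMPs, H2-K1 was 212, 253 and 235 CPM in negative barcodes of pools 1, 2 and 3 and 290, 376 and 319 CPM in singlets. H2-D1 was 378, 405 and 360 CPM against 444, 529 and 450 CPM, and B2m 517, 567 and 480 CPM against 569, 706 and 577 CPM. In each pool the negative barcodes were lower in all 3 genes, and for H2-K1 and H2-D1 the lowest singlet value lay above the highest negative value.

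With pool as block, 3 of 8 members were lower in negative GMPs (2.66% of genes): H2-K1 by -0.49 (SE 0.06, adjusted p = 0.00304), H2-D1 by -0.31 (SE 0.05, adjusted p = 0.0147) and B2m by -0.24 (SE 0.05, adjusted p = 0.0447). Ptprc was 124, 119 and 142 CPM in negative and 108, 122 and 134 CPM in singlet GMPs, a log2 difference of 0.08 (SE 0.06, adjusted p = 0.517). H2-D1 was lost without pool 3 (adjusted p = 0.234), and B2m without pool 2 (0.143) or pool 3 (0.46). With no replicate block, where 0.36% of genes were called, none passed with edgeR (adjusted p = 0.0619 for H2-K1, 0.147 for H2-D1 and 0.321 for B2m).

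**Figure D5:**
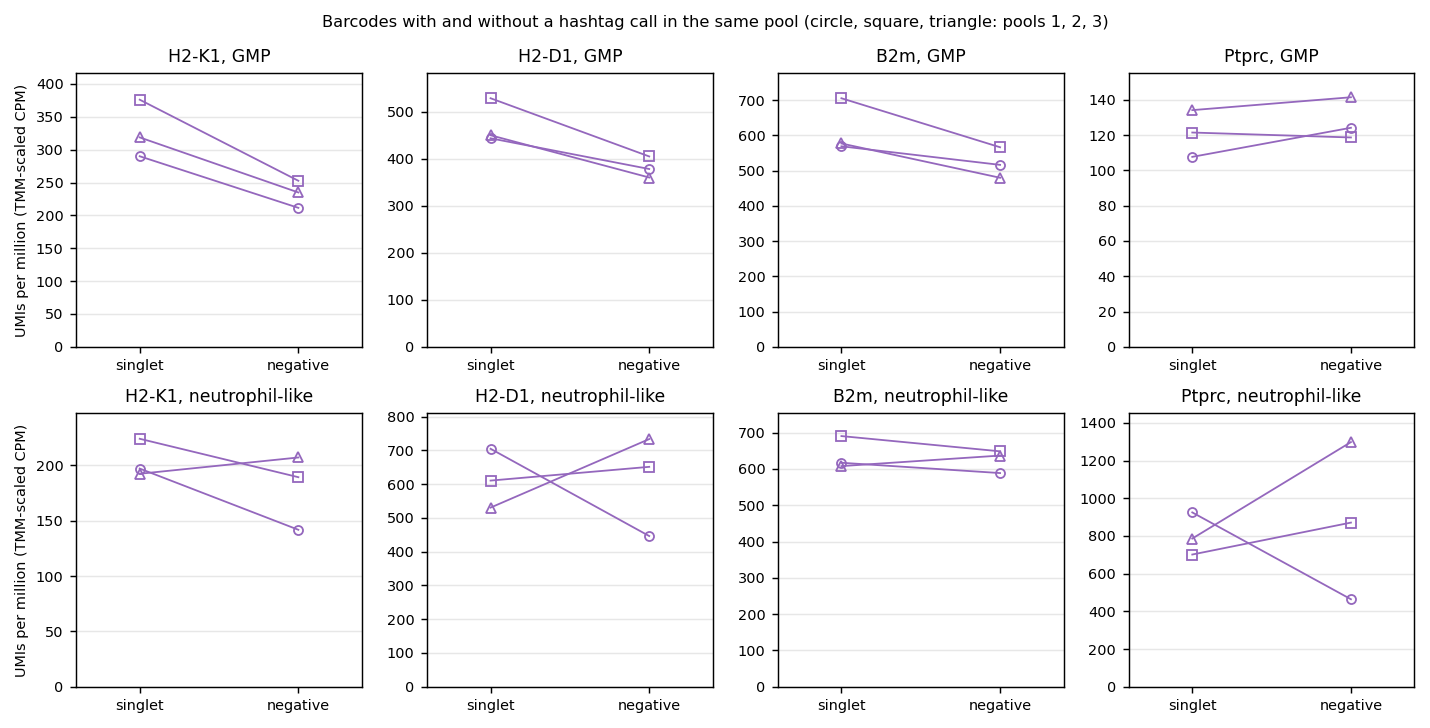
Levels (y axes, TMM-scaled CPM) of H2-K1, H2-D1, B2m and Ptprc in singlet and HTODemux-negative barcodes of GMPs (top) and neutrophil-like cells (bottom), with lines joining the sums of 1 pool. In GMPs all 3 pools fall from singlet to negative in the class I genes, whereas in neutrophil-like cells Ptprc falls in pool 1 (925 to 464 CPM) and rises in pools 2 and 3.

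The mouse of a negative barcode is not known. Since H2-K1 was higher in BRQ than in vehicle GMPs, the group and the hashtag call cannot be told apart as the difference between negative barcodes and singlets. The granule genes S100a9 (0.66), S100a8 (0.60) and Camp (0.49), which are abundant in neutrophils and used here as markers of free RNA, were higher in the negative GMPs, and their part in the result was not tested. With equal numbers of negative and singlet barcodes in each bin of gene UMIs, the same 3 genes were called in GMPs (H2-K1 -0.54, H2-D1 -0.36 and B2m -0.23, adjusted p = 8.6e-06, 0.000925 and 0.033, with 1.63% of genes called).

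In HSC/MPP-like cells 1 of 8 members passed (3.07% of genes). H2-D1 was 582, 645 and 619 CPM in negative barcodes and 690, 781 and 662 in singlets (-0.21, SE 0.05, adjusted p = 0.019), with no overlap. The call was lost without pool 1, 2 or 3 (adjusted p = 0.0696, 0.0587 and 0.0646) and with no replicate block (0.299). In monocyte/MDP-like cells it was again H2-D1 that passed, 1 of 8 (0.845% of genes), at 461, 543 and 549 CPM in negative barcodes and 575, 697 and 613 in singlets (-0.28, SE 0.06, adjusted p = 0.0209). That call was lost without pool 1 (0.0602) or pool 2 (0.17) and with no replicate block (0.512). Of the 7 markers of free RNA, 6 were lower in negative HSC/MPP-like barcodes (Camp -1.90, S100a8 -1.57 and Elane -0.89 among them) and 5 in negative monocyte/MDP-like barcodes (S100a9 -0.85, S100a8 -0.81 and Camp -1.04 among them), and their part in these results was not tested.

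In neutrophil-like cells, Ptprc was 464, 871 and 1298 CPM in negative barcodes and 925, 702 and 786 in singlets of pools 1, 2 and 3, lower in the negative barcodes of pool 1 and higher in those of pools 2 and 3. H2-D1 was 446, 651 and 733 CPM against 705, 611 and 531, with the same change of direction. No member was called by edgeR (0 of 7; 0% of 9797 genes, with 46 under an unadjusted p of 0.05) or DESeq2 (0 of 7), and without pool 1 there was 1 call.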

How the data were processed

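The authors deposited raw UMI counts per gene or hashtag and barcode for each pool, made with Cell Ranger 6.0.0 on mm10 (Seurat is also named) per the submitters' processing notes. Barcodes with 500 to 7500 detected genes and at most 15% mitochondrial UMIs were kept. The study words these limits in transcripts, and reading them as UMIs was an alternative. HTODemux of Seurat 5.3.0, at a positive quantile of 0.99, assigned hashtags within each pool. Clusters were made with scanpy 1.11.5 and leidenalg 0.10.2 (2000 variable genes without the members and other heavy chains, 30 principal components, 20 neighbours, resolution 0.8) and named from marker lists. Likely doublets marked by Scrublet were left out in an alternative only. GMPs were singlets with ln(1 + Ms4a3 UMIs per 10000) over 3. Class levels are plain CPM, and group values are TMM-scaled CPM.

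Counts were summed per mouse (or per pool and call, with pool as block) over at least 20 cells and tested with edgeR 4.0.16 (TMM, filterByExpr, quasi-likelihood, two-sided) in R 4.3.3, with all groups in 1 fit. A gene was called at a Benjamini-Hochberg adjusted p under 0.05 over all genes tested. DESeq2 1.42.0 was an alternative, and the tests were checked on simulated data. Unmapped sample columns numbered 0.

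Each pool was 1 gene expression library with 1 hashtag library, so the labels pair the mice of a pool. The main group fits did not use that pairing, and the fits with pool as replicate block did. Deviations of same-pool mice had a median correlation of 0.099 in GMPs (lowest -0.00752), 0.0647 in neutrophil-like (lowest -0.104), 0.0552 in HSC/MPP-like and 0.0892 in monocyte/MDP-like cells.

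The 8 members and the gene lists were chosen with earlier results of these data known. Members are named in each result, and list genes only when called, at most the 4 with the smallest adjusted p per list and comparison. The fits within single clusters were chosen after seeing the data. With 3 mice per group from 1 experiment, p-values measure the spread between these mice.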

Additional observations from a re-analysis of the deposited data

Results flagged for a closer look

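In 9 cases the response of a member in GMPs differed from its response in neutrophil-like cells of the same mice, by edgeR's test of the difference itself. For vehicle minus NTB the differences on the log2 scale were -1.97 for Ptprc, -1.29 for H2-D1, -1.27 for Tapbp, -1.02 for Tap1, -0.94 for H2-K1 and -0.67 for B2m. For BRQ minus vehicle they were 0.79 for Ptprc, 0.76 for H2-K1 and 0.69 for H2-D1. The cluster make-up of the neutrophil-like class differed between the groups, and with cells of cluster 3 only none of the 9 passed by edgeR. With cells of cluster 1 only 2 of the 9 passed, Ptprc (-0.88, adjusted p = 0.0465) and Tapbp (-1.32, adjusted p = 0.0279), both for vehicle minus NTB. With 3 mice per group no test for an outlying mouse was run, and the calls lost or gained without single mice stand with the results above.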

How the results depend on the processing

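Of 453 values of called members under other settings or without 1 mouse or pool, 335 kept direction and call, 106 kept direction only and 12 reversed. The reversed values were those within single neutrophil-like clusters. For vehicle against NTB they were -0.56 (H2-K1), -0.27 (H2-D1), -0.0898 (Ptprc) and -0.19 (Tapbp) in cluster 3 and -0.38 (H2-K1) in cluster 1. For the GMP response minus that of cluster 3 they were 0.48 (H2-K1), 0.16 (H2-D1), 0.27 (B2m), 0.054 (Ptprc) and 0.40 (Tap1) for vehicle against NTB, and -0.26 (H2-K1) and -0.0351 (H2-D1) for BRQ against vehicle.

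Counts of called members moved as follows, and the cause was not tested. In GMPs, vehicle against NTB (2) gave 4 with pool as replicate block, 4 in GMP-like clusters, 1 in cluster 0 and 1 with no filter on low counts, and BRQ against NTB (1) gave 4, 4, 0 and 4, 2 with tag ratios, 2 at a Ms4a3 limit of 2.5 and 0 with the limits read as UMIs. In neutrophil-like cells, cluster 3 gave 0 and 1 (Tap1, lower, which is not among the 2) and cluster 1 gave 0 and 0 for vehicle (4) and BRQ (2) against NTB, and the difference between responses (6 and 3) gave 0 and 0 with cluster 3 and 2 and 0 with cluster 1. In HSC/MPP-like cells, vehicle and BRQ against NTB (1 each) gave 0 each in cluster 7 and with the limits read as UMIs and 2 each with tag ratios. BRQ against NTB gave 3 with the replicate block and 0 with DESeq2, and vehicle against NTB gave 2 without barcodes that Scrublet marked. In monocyte/MDP-like cells, BRQ against NTB (2) gave 4 with the replicate block. Of negative against singlet, no replicate block left 0 calls in GMPs (3), HSC/MPP-like (1) and monocyte/MDP-like cells (1), equal numbers per UMI bin gave 2 and 3 in the last 2 of these, and monocyte/MDP-like cells gave 2 with no filter and 0 at a positive quantile of 0.95. The replicate block changed no other count by over 1.5 times.

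Leaving out 1 mouse or pool gave counts of 1 to 3, 0 to 3 and 1 to 3 in GMPs (vehicle and BRQ against NTB, negative against singlet), 2 to 5, 1 to 2, 0 to 2 and 0 to 1 in neutrophil-like cells (vehicle and BRQ against NTB, BRQ against vehicle, negative against singlet), 0 to 2, 0 to 1 and 0 to 0 in HSC/MPP-like cells (vehicle and BRQ against NTB, negative against singlet), 0 to 2, 0 to 3 and 0 to 1 in monocyte/MDP-like cells (BRQ against vehicle, BRQ against NTB, negative against singlet) and 0 to 6 for the BRQ difference between responses.

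The positive quantile of 0.95 lowered the negative share to 55.39% in erythroid/MEP-like, 36.66% in neutrophil-like, 19.25% in HSC/MPP-like, 18.05% in GMP-like and 12.16% in monocyte/MDP-like cells, and the limits read as UMIs raised the last to 37.62%. Across classes, r of H2-K1 with the negative share was -0.892 to -0.791 without 1 pool and -0.533 with UMI limits, and r of H2-K1 with the hashtag median was 0.481 over singlets. UMI limits gave r = -0.535 and 0.166 for H2-D1 with the negative share and hashtag median, and -0.283 for Ptprc with the hashtag median. The latter was -0.13 over singlets and 0.289 without marked barcodes, and r of Ptprc with the negative share was -0.283 without marked barcodes and -0.24 at the quantile of 0.95.

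With at most 3 mice per group, 2 for vehicle in HSC/MPP-like cells, and as few as 41 cells in a sum over a class (20 under the alternatives), small differences were not detectable, Nlrc5 was too sparse to test in GMPs and neutrophil-like cells by group, and reading the limits as UMIs left too few cells to run the vehicle comparisons in GMPs and those of monocyte/MDP-like cells.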
